A study of Mus musculus with 24 samples.

Results

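The macrophage marker genes described here are 10 genes of the 37310 in the deposited tables: Cd68, Csf1r, Cd14, Lyz2, Mrc1, Cd163, C1qa, C1qb, C1qc and Tyrobp. They were chosen by symbol, and they had been picked because macrophage genes were higher with epigallocatechin gallate (EGCG) on day 4 and lower on day 8 in both fat depots. The EGCG values of these genes are therefore given as a description and carry no test. The genes were tested between the depots, a contrast that the choice had not used. EGCG, a catechin of green tea, had been added to cultures of stromal vascular cells, the mixed non-adipocyte cells of fat, while they were being differentiated into adipocytes. The cells came from inguinal white adipose tissue (WAT) or interscapular brown adipose tissue (BAT) of C57BL/6 mice aged 6 weeks. Each group combined 1 depot, 1 treatment (EGCG, or the DMSO control) and 1 day, which was day 4, when the induction medium of insulin, dexamethasone and 3-isobutyl-methylxanthine ended, or day 8, after the insulin and T3 medium. This gave 8 groups with 3 libraries each. The labels call all of these cells preadipocytes, give no dose of EGCG and do not say whether replicates were isolated separately, so p-values measure only the spread between these libraries, which may be technical.

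Macrophages are the resident phagocytes of adipose tissue, where they clear dying adipocytes, take up lipid and iron and remodel the matrix, and a stromal vascular fraction carries some of them into culture. Csf1r, the receptor for the growth factor Csf1, keeps them alive. C1qa, C1qb and C1qc encode the 3 chains of C1q, which recognises immune complexes and dying cells and starts the classical complement pathway, and tissue macrophages are its main source. Mrc1, the mannose receptor CD206, and Cd163, the receptor for haemoglobin bound to haptoglobin, are endocytic receptors of tissue-resident and alternatively activated macrophages. Tyrobp, or DAP12, is the signalling adaptor of receptors such as Trem2, Cd14 is the co-receptor that hands endotoxin to Tlr4, Lyz2 is the lysozyme of myeloid cells, and Cd68 is a glycoprotein of the lysosome membrane.

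Gene counts summed to 39452696 to 52893848 reads per library in replicates 1 and 2, and to 16392420 to 41675643 in replicate 3, which the authors put in a separate table. FPKM values (reads per kilobase of gene length and per 1e+06 reads on genes) are compared within the first table, and replicate 3 is given beside them for direction. One library stood apart: in WAT day 8 EGCG replicate 3 the 5 leading genes took 61.0% of the reads, against 3.64% to 10.5% in the others, which lowers the FPKM of every other gene in it. Its values are given as deposited and also rescaled to the reads outside those 5 genes. In bulk RNA of this kind, fewer macrophages and less of each transcript per macrophage cannot be told apart.

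The label was checked against further markers. Adgre1 (F4/80) was found in every library at 0.348 to 4.52 FPKM, and Spi1, the myeloid transcription factor PU.1, at 0.211 to 2.74. Ptprc (CD45), which all leukocytes carry, was low, with 0.0361 to 0.857 FPKM. Of 12 marker genes of T, B and natural killer cells, 11 had fewer than 10 reads in every library, and their summed level in replicates 1 and 2 was at most 0.473 FPKM. Ccr2, the chemokine receptor of recruited monocytes, had at most 6 reads in any library, and Timd4, a marker of long-lived resident macrophages, at most 4. The macrophage label is thus carried by myeloid genes at low levels, next to a stromal list (Pdgfra, Col1a1, Col3a1, Dcn and Thy1) that summed to between 2096 and 11102 FPKM in replicates 1 and 2.

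RefSeq promoter windows in build GRCm38.p6 were matched for 6 of the 10 genes: Mrc1, C1qb, C1qc, Cd163, Lyz2 and Cd68. The 200 bases before the start of C1qb, C1qc and Mrc1 are shown because, among the genes with a window, these followed the mean of the 10 genes most closely across the libraries. The sequences read 5′ to 3′ along each gene, at chr4:136886201-136886400, minus strand for C1qb, chr4:136892915-136893114, minus strand for C1qc and chr2:14229214-14229413, plus strand for Mrc1. Capitals mark each match to GAGGAA, the letters of the PU box that Spi1 binds, read on either strand.
C1qb: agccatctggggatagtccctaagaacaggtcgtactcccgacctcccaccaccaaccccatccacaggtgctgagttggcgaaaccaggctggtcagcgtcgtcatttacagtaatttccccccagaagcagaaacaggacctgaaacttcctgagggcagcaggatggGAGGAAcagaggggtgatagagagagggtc
C1qc: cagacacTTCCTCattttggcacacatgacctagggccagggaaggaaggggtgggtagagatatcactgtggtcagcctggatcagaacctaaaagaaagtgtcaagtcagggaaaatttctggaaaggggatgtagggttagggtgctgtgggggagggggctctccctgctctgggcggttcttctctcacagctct
Mrc1: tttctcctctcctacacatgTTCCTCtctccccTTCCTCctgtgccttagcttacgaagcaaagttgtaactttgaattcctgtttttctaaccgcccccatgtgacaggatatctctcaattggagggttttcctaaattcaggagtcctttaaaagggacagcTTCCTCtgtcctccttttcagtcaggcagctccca
GAGGAA occurred once in the 250 bases before the start of C1qb, C1qc and Cd68, 3 times before Mrc1, and not before Cd163 or Lyz2, and 23.3% of 32851 windows of that length hold it. TTGCNNAA, a C/EBP site, was found before Cd68 and none of the other 5 (9.56% of windows), and TGANTCA, an AP-1 site, 2 times before Cd68 and not before the others (6.75% of windows). The matches shown do not overlap each other. A match is a string of letters, and no binding was measured.

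All 10 genes are protein-coding. In build NCBIM37 the C1q genes lie together in 18.675 kb of chromosome 4 on the minus strand, with C1qb at 136436044 to 136442102, C1qc at 136445719 to 136448980 and C1qa at 136451832 to 136454718. Mrc1 is on chromosome 2 (14151041 to 14253684, plus strand) and holds the microRNA gene Mir511. Cd163 is on chromosome 6 (124254669 to 124280545, plus), Tyrobp on chromosome 7 (31198807 to 31202596, plus), Lyz2 on chromosome 10 (116714390 to 116719377, minus) and Cd68 on chromosome 11 (69477715 to 69479655, minus). Cd14 (36884728 to 36886390, minus) and Csf1r (61265226 to 61291803, plus) are on chromosome 18. Csf1r overlaps Hmgxb3, and the sources used here do not state whether counting used the strand, so reads of these genes could be mixed. Lyz1, the near-identical neighbour of Lyz2, was listed at no more than 0.358 FPKM and took at most 0.386% of the sum of both genes.

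The C1q genes took one course: higher with EGCG on day 4, lower with EGCG on day 8, and in control cells low on day 4 in WAT but not in BAT. In WAT control cells on day 4, C1qa was at 7.38, 7.24 and 9.15 FPKM in replicates 1, 2 and 3. With EGCG on day 4 it was at 14.1, 13.2 and 12.4. The 3 treated libraries lay above the 3 controls. On day 8 the order was turned: control libraries had 17.3 and 26.5 FPKM, with replicate 3 between them, and EGCG libraries 1.61, 1.79 and 0.854 (2.19 when the third is rescaled). Control cells thus held 12.9 times as much C1qa as EGCG cells on day 8 by the means of replicates 1 and 2 (21.9 ± 6.54 against 1.70 ± 0.125, SD, n = 2). In BAT control cells C1qa was already high on day 4, at 20.4, 20.2 and 22.0 FPKM, and EGCG libraries had 34.5, 32.9 and 41.1. On day 8 BAT control cells had 15.7, 12.5 and 18.8 FPKM and EGCG cells 2.22, 2.62 and 3.06, with no overlap between the groups.

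C1qb and C1qc also lay above their controls with EGCG on day 4 and below them on day 8. C1qb in WAT went from 7.31, 6.71 and 9.08 FPKM in day 4 controls to 11.8, 13.6 and 14.0 with EGCG. On day 8 it was at 20.3, 30.6 and 28.7 in WAT controls and at 2.79, 2.33 and 0.904 (2.32 rescaled) with EGCG. In BAT it was at 20.7, 18.1 and 20.5 in day 4 controls, and at 31.8, 30.8 and 37.4 with EGCG. Each treated group was clear of its control. The BAT day 8 values were 16.8, 15.5 and 17.3 in controls and 3.34, 3.56 and 4.95 with EGCG. C1qc lay at 3.61 to 5.83 FPKM in WAT day 4 controls and at 9.43 to 10.0 with EGCG, and at 13.7 to 22.7 in WAT day 8 controls against 1.14 to 3.32 with EGCG (2.92 for the lowest library when rescaled). Its BAT values were 9.96 to 11.3 in day 4 controls, 23.2 to 28.3 with EGCG, 11.8 to 13.3 in day 8 controls and 3.08 to 3.71 with EGCG.

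**Figure D1:**
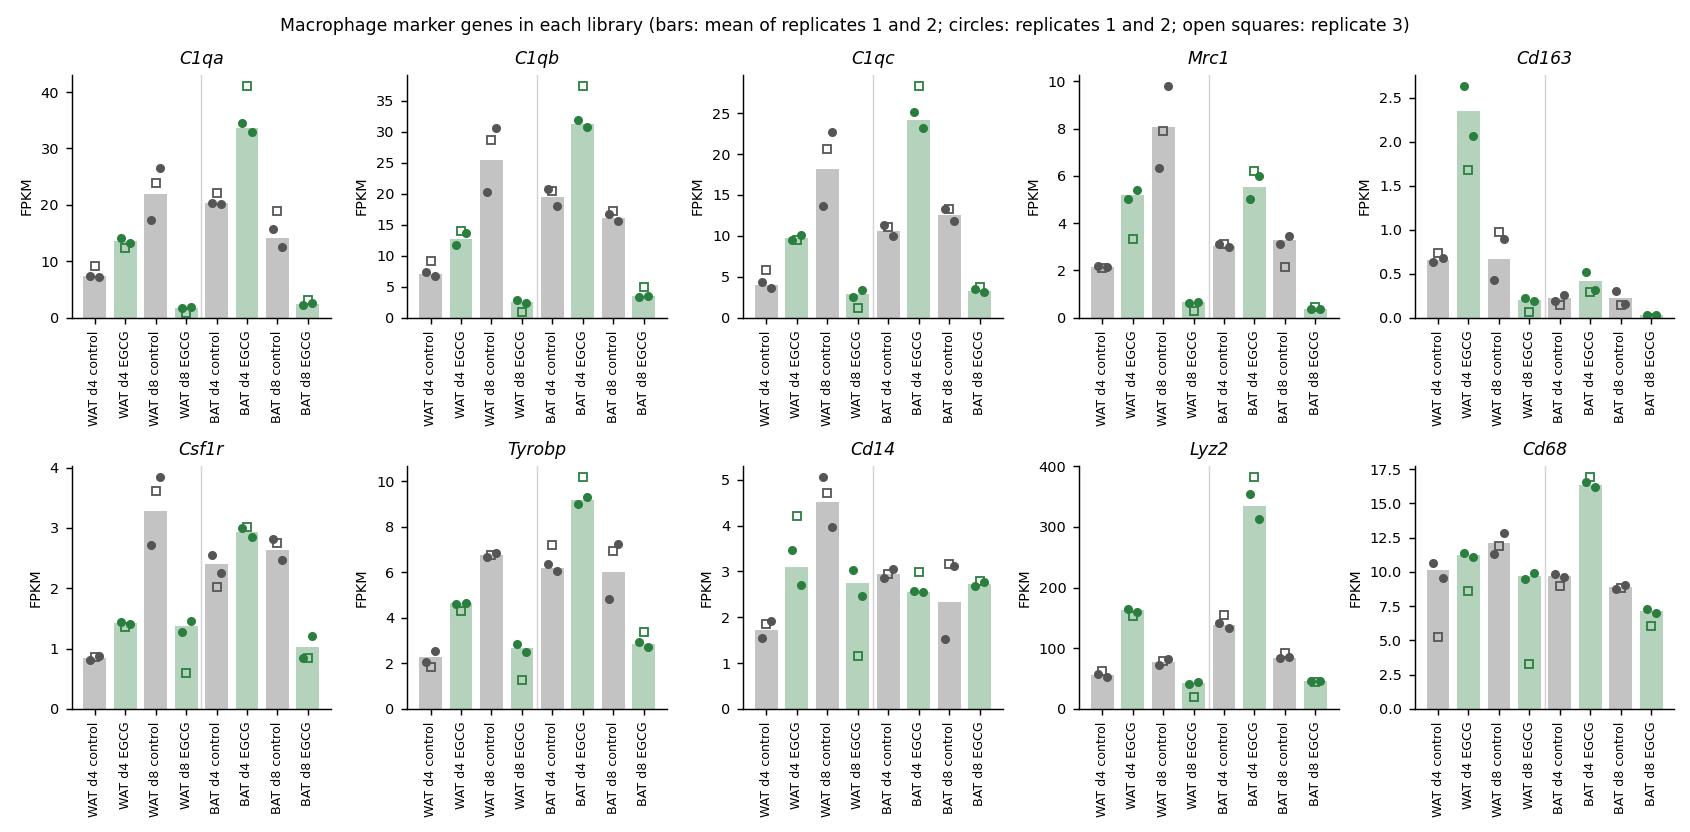
FPKM (vertical axis, from 0, with its own scale in each panel) of the 10 genes in the 8 groups, with WAT to the left of the grey line and BAT to the right, and controls in grey and EGCG in green. Bars are means of replicates 1 and 2, circles those replicates and open squares replicate 3. C1qa, C1qb, C1qc and Mrc1 are lowest in both day 8 EGCG groups, while Cd68 stays between 3.30 and 16.9 FPKM throughout.

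Mrc1 showed as wide a gap on day 8 as the C1q genes. Its WAT day 4 control libraries had 2.17, 2.15 and 2.09 FPKM and the EGCG libraries 5.02, 5.39 and 3.34. On day 8 the WAT controls had 6.33, 9.80 and 7.91 FPKM and the EGCG libraries 0.625, 0.666 and 0.278 (0.713 rescaled). The mean was 12.5 times higher in the controls. In BAT, Mrc1 was at 3.13, 2.97 and 3.14 in day 4 controls and at 5.01, 6.02 and 6.21 with EGCG. On day 8 BAT controls had 3.12, 3.47 and 2.16 FPKM and EGCG cells 0.383, 0.357 and 0.444, so that the mean of controls was 8.90 times that of EGCG cells.

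Cd163 was the rarest of the 10 genes, and the one that had a lower mean in BAT than in WAT in each of the 4 treatment and day combinations. It reached 1 FPKM in only 2 of the 16 libraries of replicates 1 and 2, both WAT day 4 EGCG, and passed the filter on low values through them. A gene that passes in this way had to differ in that group, so its differences there are given as a description. It was at 2.63, 2.06 and 1.67 FPKM there, against 0.629, 0.680 and 0.733 in the WAT day 4 controls. WAT day 8 controls had 0.430, 0.893 and 0.967 FPKM, and WAT day 8 EGCG cells 0.223, 0.184 and 0.0588 (0.151 rescaled). In BAT it ran from 0.146 to 0.252 in day 4 controls, from 0.294 to 0.512 with EGCG and from 0.139 to 0.302 in day 8 controls. BAT day 8 EGCG libraries held 6, 7 and 0 reads of it, and the last allows up to 0.0387 FPKM, the level of 3 reads, counting error only.

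The signalling genes Csf1r and Tyrobp took the same directions. Csf1r in WAT was at 0.812, 0.878 and 0.856 FPKM in day 4 controls and at 1.44, 1.41 and 1.35 with EGCG. It reached 2.72, 3.84 and 3.61 in WAT day 8 controls, against 1.28, 1.46 and 0.597 (1.53 rescaled) with EGCG. In BAT the day 4 values of 2.55, 2.25 and 2.03 in controls and 3.00, 2.86 and 3.01 with EGCG lay closer together. BAT day 8 controls had 2.81, 2.47 and 2.74 FPKM and EGCG cells 0.840, 1.21 and 0.838. In WAT Tyrobp was at 1.84 to 2.52 FPKM in day 4 controls and 4.31 to 4.64 with EGCG, and on day 8 at 6.67 to 6.85 in controls and 1.28 to 2.83 with EGCG (3.27 for the lowest library when rescaled). In BAT it was at 6.03 to 7.18 in day 4 controls, 9.01 to 10.2 with EGCG, 4.80 to 7.24 in day 8 controls and 2.72 to 3.39 with EGCG.

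Cd14 did not follow the pattern for which the genes had been picked, except in WAT. Its WAT values were 1.54, 1.91 and 1.86 FPKM in day 4 controls and 3.48, 2.70 and 4.20 with EGCG. WAT day 8 controls had 5.05, 3.96 and 4.72 FPKM and EGCG cells 3.02, 2.47 and 1.16 (2.98 rescaled). In BAT on day 4 controls had 2.85, 3.05 and 2.95 FPKM and EGCG cells 2.57, 2.54 and 2.98, lower with EGCG in replicates 1 and 2 and level in replicate 3. On day 8 BAT controls had 1.53, 3.13 and 3.17 FPKM and EGCG cells 2.69, 2.78 and 2.80, and the groups overlapped.

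Lyz2 was the most abundant of the 10 genes, and Cd68 the steadiest. Lyz2 was at 57.7, 53.2 and 62.2 FPKM in WAT day 4 controls and at 164, 160 and 152 with EGCG, and at 142, 133 and 154 in BAT day 4 controls and at 355, 314 and 382 with EGCG. On day 8 it was at 72.0 to 81.6 FPKM in WAT controls and 19.5 to 43.7 with EGCG (50.1 for the lowest library when rescaled), and at 83.6 to 92.4 in BAT controls and 44.1 to 45.6 with EGCG. Cd68 hardly differed on day 4 in WAT, with 10.6, 9.57 and 5.26 FPKM in controls and 11.4, 11.1 and 8.60 with EGCG. It stood higher with EGCG in BAT, at 16.5, 16.2 and 16.9 against 9.86, 9.60 and 8.95. On day 8 Cd68 was at 11.3 to 12.8 FPKM in WAT controls and 3.30 to 9.89 with EGCG (8.46 for the lowest library when rescaled), and at 8.72 to 9.03 in BAT controls and 6.03 to 7.29 with EGCG.

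Across the 10 genes, replicates 1 and 2 with EGCG lay above both controls for 10 genes in WAT on day 4, where 47.9% of the 14095 genes tested did so, and for 9 in BAT, where 42.5% did. Cd14 lay below in BAT on day 4 (33.6% of all genes lay below). On day 8 the EGCG replicates lay below both controls for 10 genes in WAT and 9 in BAT, against 25.1% and 32.2% of all genes, and these counts restate how the genes were picked. The median ratio of EGCG to control was 1.95 in WAT and 1.67 in BAT on day 4, and 0.351 and 0.324 on day 8. On day 4 the ratios ran from 1.11 (Cd68) to 3.58 (Cd163) in WAT and from 0.865 (Cd14) to 2.43 (Lyz2) in BAT. On day 8 they ran from 0.0775 (C1qa) to 0.800 (Cd68) in WAT and from 0.112 (Mrc1) to 1.17 (Cd14) in BAT. The lowest WAT ratios on day 8 belonged to C1qa, Mrc1, C1qb and C1qc, and the lowest BAT ratios to Mrc1, Cd163, C1qa, C1qb and C1qc.

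**Figure D2:**
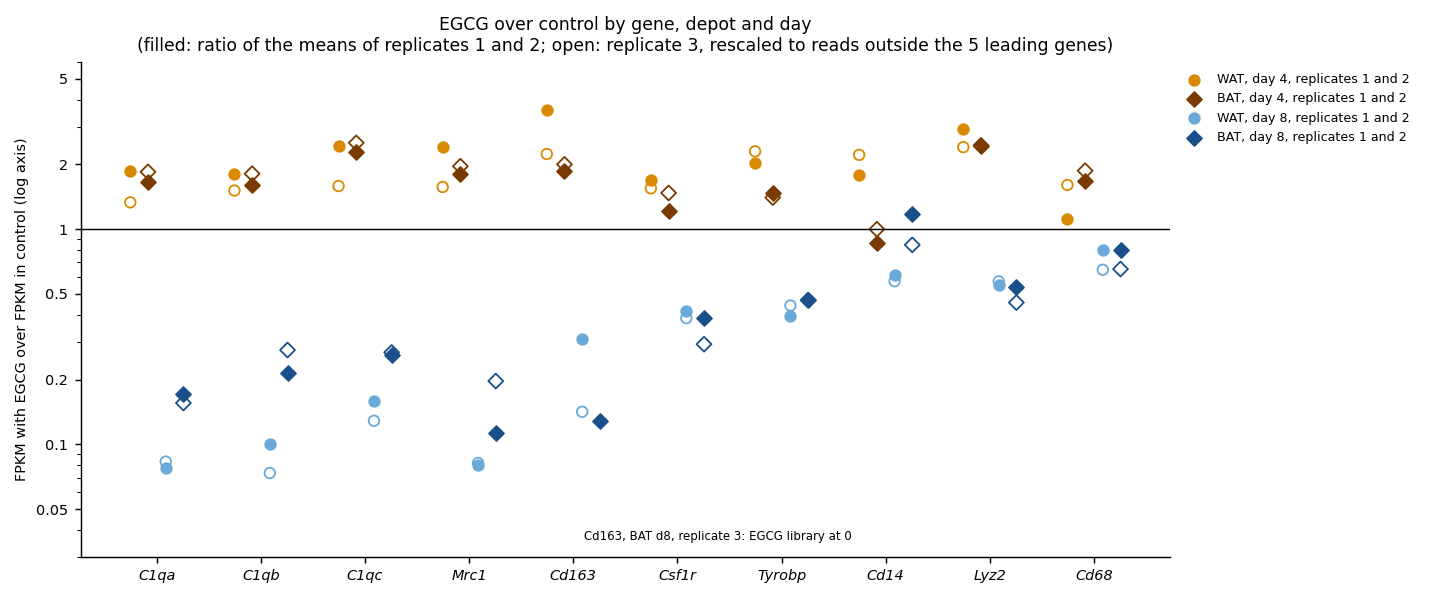
Ratio of FPKM with EGCG to FPKM in control (vertical log axis) for each gene, in WAT (circles) and BAT (diamonds), on day 4 (brown shades) and day 8 (blue shades), filled for the means of replicates 1 and 2 and open for replicate 3 rescaled to reads outside the 5 leading genes, with no point for Cd163 in BAT on day 8, whose EGCG library is at 0. Day 4 points lie above 1 apart from Cd14 in BAT, day 8 points lie below 1 apart from Cd14 in BAT, and the day 8 points of C1qa, C1qb, C1qc and Mrc1 reach 0.0775 to 0.260 in the filled symbols.

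The same genes also moved with time, and each time comparison shares its groups with the EGCG comparisons. In WAT controls all 10 were higher on day 8 than on day 4 by their means, with a median ratio of 2.98, from 1.01 for Cd163 to 4.55 for C1qc. In BAT controls the median ratio was 0.942, with Lyz2 at 0.611 and C1qa at 0.695 at the low end and C1qc at 1.18 at the high end, and for 5 of the 10 genes replicates 1 and 2 of the days overlapped. C1qc lay above and C1qa, C1qb, Lyz2 and Cd68 below (35.4% and 48.8% of all genes). With EGCG the day 8 means were below day 4 for 10 genes in WAT (median ratio 0.278) and 9 in BAT (0.136). The BAT exception was Cd14, at 1.07. Replicates 1 and 2 of day 8 lay above those of day 4 for 9 genes in WAT controls, against 35.8% of all genes. With EGCG they lay below for 8 in WAT and 9 in BAT, against 38.4% and 40.2%, and above for Cd14 in BAT (41.2% of all genes).

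The first question tested was whether the depots differed in these genes. On day 4 BAT control cells held more of most of them: 8 of 10 were higher in BAT and Cd163 was lower, in limma on log2(FPKM + 1) with Benjamini-Hochberg adjustment over all genes tested. Of all 14095 genes, 41.4% were called higher and 14.4% lower in this comparison. The median difference of the 10 genes was 1.01 log2 units, and that of all genes 0.15. C1qa was 2.77 times higher in BAT by its means (difference 1.36 ± 0.15 log2 units, SE, adjusted p = 2.31e-05 in limma), and its 3 BAT libraries lay above the 3 WAT libraries. C1qb differed by 1.35 ± 0.15 (adjusted p = 1.95e-05 in limma), C1qc by 1.22 ± 0.18, Tyrobp by 1.14 ± 0.13 and Csf1r by 0.88 ± 0.12. Lyz2 was 2.49 times higher, by 1.30 ± 0.07 log2 units (adjusted p = 1.42e-07 in limma). Cd68 did not pass, with 10.1 ± 0.759 FPKM in WAT and 9.73 ± 0.188 in BAT (SD, n = 2) and a 95% interval of the difference from -0.19 to 0.09. Cd163 was 2.93 times lower in BAT by its means (-0.44 ± 0.14 log2 units, adjusted p = 0.0216 in limma). The added 1 FPKM compresses changes of a gene at such levels.

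Some calls in that comparison depended on the settings. Mrc1 differed by 0.36 ± 0.14 (adjusted p = 0.0497 in limma), and 19 of 25 other settings took the call away, with adjusted p up to 0.294. Cd14 differed by 0.54 ± 0.19 (adjusted p = 0.0302), and 8 of 24 other settings took it away, with adjusted p up to 0.153. Cd163 lost its call when any of the 4 libraries compared was left out (adjusted p up to 0.0931). When FPKM values were rescaled by median ratios, the median of all genes went from 0.15 to 0.02, the share of all calls that were higher went from 74.3% to 51.5%, and the 10 genes gave 6 higher and 2 lower, with Cd68 joining Cd163 (Cd68 -0.20, adjusted p = 0.0248 in limma).

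On day 8 the control depots stood the other way. In limma none of the 10 genes was higher in BAT, also none at an unadjusted p under 0.05 or in a weighted fit of the recovered reads (limma-voom), and 7 were lower, against 31.6% and 22.0% of all genes. The median difference was -0.44 log2 units, and that of all genes 0.05. Mrc1 showed the widest gap, with 6.33, 9.80 and 7.91 FPKM in WAT and 3.12, 3.47 and 2.16 in BAT (difference -1.05 ± 0.14, SE, adjusted p = 7.12e-05 in limma). Cd14 differed by -0.76 ± 0.19, C1qb by -0.60 ± 0.15, C1qa by -0.58 ± 0.15, Cd163 by -0.43 ± 0.14 and Cd68 by -0.40 ± 0.06. C1qc was called at -0.46 ± 0.18 (adjusted p = 0.0487 in limma), but 17 of 25 other settings took the call away, and without WAT day 8 control replicate 2 it was -0.12. That library lay above replicate 1 of its group in the 3 C1q genes, and without it C1qa (-0.28, adjusted p = 0.0523) and Cd163 (-0.22, adjusted p = 0.220) lost their calls as well. The same genes lost them without BAT day 8 control replicate 2, which lay below its partner in C1qa and Cd163 (adjusted p = 0.0721 and 0.140). Csf1r, Lyz2 and Tyrobp did not pass, with 95% intervals from -0.49 to 0.05, from -0.02 to 0.29 and from -0.45 to 0.12. Leaving out 1 library brought each of these past the threshold: Csf1r at -0.41 without WAT day 8 control replicate 1, Tyrobp at -0.42 without BAT day 8 control replicate 2, and Lyz2 at 0.22 without WAT day 8 control replicate 2.

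**Figure D3:**
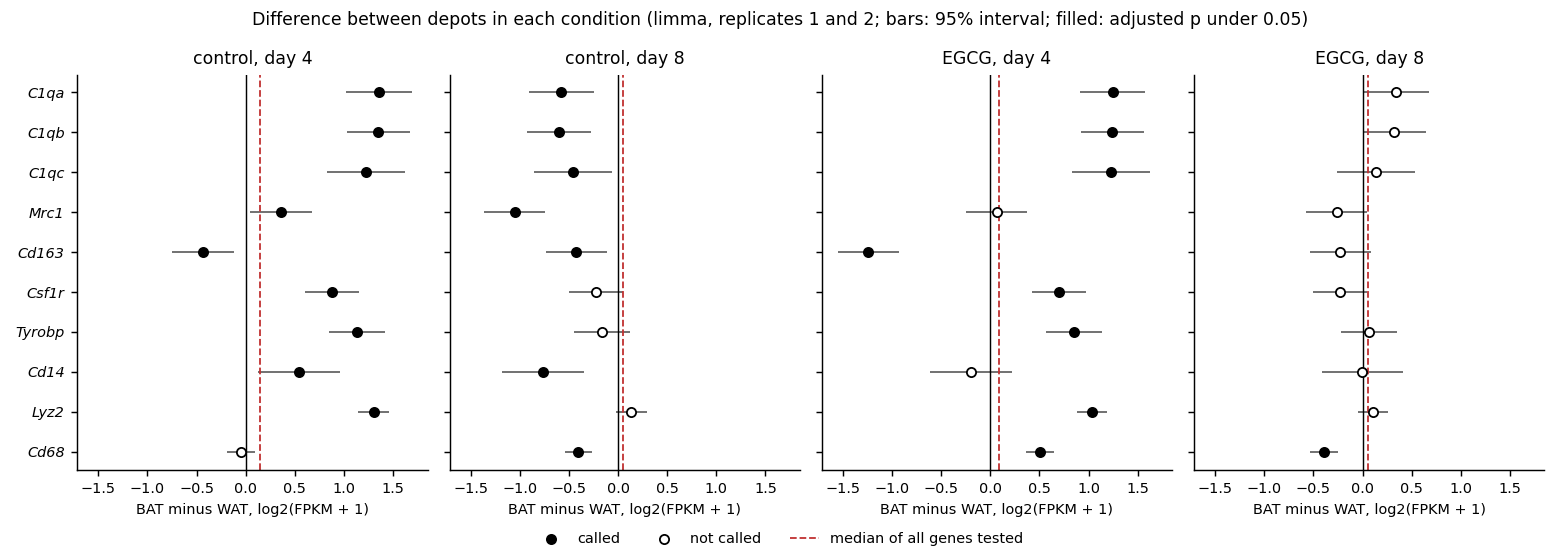
Difference between BAT and WAT (horizontal axis, log2(FPKM + 1) units, with 95% intervals) for each gene in the 4 combinations of treatment and day, with filled symbols for calls at an adjusted p under 0.05 and a dashed line at the median of all genes. On day 4 the C1q genes, Csf1r, Tyrobp and Lyz2 lie to the right in both treatments, on day 8 in controls 7 of 10 are called to the left, and on day 8 with EGCG Cd68 alone is called.

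With EGCG on day 4 the depots again differed towards BAT. Of the 9 genes other than Cd163, 7 were higher in BAT and none was lower (also none at an unadjusted p under 0.05 or in limma-voom), against 32.9% and 15.8% of all genes, with a median over the 10 genes of 0.77 log2 units beside 0.09 for all genes. C1qa, C1qb and C1qc were higher by 1.25 ± 0.15, 1.24 ± 0.15 and 1.23 ± 0.18 log2 units, Lyz2 by 1.04 ± 0.07, Tyrobp by 0.85 ± 0.13, Csf1r by 0.70 ± 0.12 and Cd68 by 0.50 ± 0.06. Cd163 was 5.66 times lower in BAT by its means, which is a description, since this is the comparison with the group that carried it past the filter. Mrc1 (5.21 ± 0.265 FPKM in WAT and 5.51 ± 0.715 in BAT, SD, n = 2) had an interval from -0.25 to 0.38, and Cd14 from -0.61 to 0.22. None of these 7 calls was lost in any other setting that was run.

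With EGCG on day 8 only Cd68 was called, lower in BAT (-0.39 ± 0.06 log2 units, adjusted p = 5.81e-04 in limma), where 24.4% of all genes were higher and 14.0% lower. A fit of both tables together gave -0.02 for Cd68 there, with the library that stands apart included. The median difference of the 10 genes was 0.03. The unadjusted 95% intervals of C1qa (0.01 to 0.67) and C1qb (0.00 to 0.65) lay above 0, but their adjusted p-values were 0.0993 and 0.105 in limma, and limma-voom called no gene higher either. Leaving out either WAT day 8 control library raised the count to 4 by adding Mrc1, C1qa and C1qb, although these libraries are not in the comparison and act through the shared estimate of spread. Both depots were low in this condition, with C1qa at 1.70 ± 0.125 FPKM in WAT and 2.42 ± 0.283 in BAT (SD, n = 2).

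The change of the depot difference between days was tested as an interaction. In control cells limma called it negative for 9 of 10 genes, all but Cd163, and positive for none (also none at an unadjusted p under 0.05 or in limma-voom), against 25.1% and 14.8% of all genes. It came to -1.95 ± 0.21 log2 units in C1qb, -1.93 ± 0.21 in C1qa, -1.68 ± 0.26 in C1qc and -1.41 ± 0.20 in Mrc1, and to -0.35 ± 0.09 in Cd68. Cd163 gave 0.01, with an interval from -0.43 to 0.45. Its mean was 2.93 times lower in BAT on day 4 and 2.91 times lower on day 8. With EGCG limma called it negative for 7 of the 9 genes other than Cd163 and positive for none (also none at an unadjusted p under 0.05 or in limma-voom), against 12.8% and 7.17% of all genes. Counted with Cd163, the 8 calls became 2 with both tables fitted together and 3 in limma-voom. The fit of both tables held the WAT day 8 EGCG library that stands apart, as deposited, and took away 24 calls over all results. Without that library it took away 1. The EGCG interaction was -1.09 ± 0.26 in C1qc and -0.93 ± 0.10 in Lyz2. The value of Cd163 was 1.01 on the log2(FPKM + 1) scale and -0.16 in limma-voom, which adds no FPKM pseudocount and weights by read count. It is a description, since the scale flattens its low groups. In FPKM its mean was 5.66 times lower in BAT on day 4 and 7.02 times lower on day 8. C1qc lost its EGCG interaction call without WAT day 8 EGCG replicate 2 (-0.94, adjusted p = 0.0510), and C1qa, C1qb, C1qc and Tyrobp lost theirs in limma-voom, with adjusted p up to 0.284.

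The share of higher calls over all genes depended on the scaling of the libraries in the other comparisons too. Rescaling by median ratios took the share of calls that were higher from 67.6% to 56.9% with EGCG on day 4 and from 37.1% to 54.7% in the control interaction. Quantile normalization took it from 63.6% to 53.4% with EGCG on day 8 and from 35.9% to 48.2% in the EGCG interaction. The counts of the 10 genes in these 4 comparisons were 7 and 1, 0 and 9, 0 and 1, and 1 and 7, higher and lower, as deposited and under both rescalings, Cd163 included, whereas those of the day 4 controls changed as given above.

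The proportions among the genes changed as well. The ratio of C1qc to C1qa FPKM, which are subunits used in equal number, was 0.498 to 0.637 in WAT and 0.494 to 0.552 in BAT day 4 controls over 3 libraries each, and 0.674 to 0.760 and 0.689 to 0.729 with EGCG. On day 8 it was 0.793 to 0.860 and 0.705 to 0.945 in controls, and 1.33 to 1.86 and 1.18 to 1.56 with EGCG. The EGCG range lay above the control range in each depot and day. C1qb to C1qa was 0.897 to 1.02 in BAT day 4 controls and 1.36 to 1.62 in BAT day 8 EGCG cells. These ratios do not depend on the scaling of a library, and they rest on as few as 37 reads of C1qa in the day 8 EGCG groups.

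Mrc1 per Cd68 was low in both day 8 EGCG groups. It was 0.559 to 0.763 in WAT day 8 controls and 0.0662 to 0.0843 in WAT day 8 EGCG cells, and 0.244 to 0.384 and 0.0511 to 0.0736 in BAT. Lyz2 made up 60.1% to 62.9% of the summed FPKM of the 10 genes in WAT day 4 controls and 40.9% to 46.2% in WAT day 8 controls. With EGCG it made up 71.4% to 73.5% on day 4 over both depots and 62.5% to 67.1% on day 8. The sum itself, in replicates 1 and 2, was highest in BAT day 4 EGCG cells, at 483 and 438 FPKM, and lowest in the day 8 EGCG groups, at 64.8 and 68.3 in WAT and 68.3 and 69.0 in BAT.

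**Figure D4:**
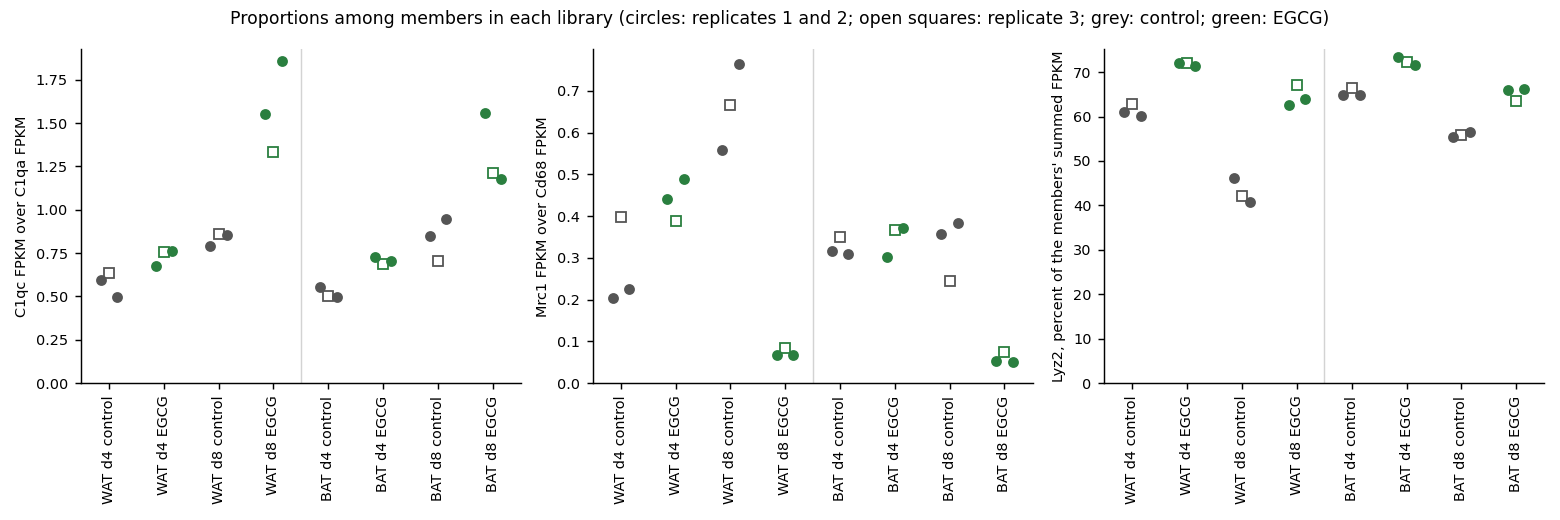
C1qc FPKM over C1qa FPKM, Mrc1 FPKM over Cd68 FPKM and the percent of the summed FPKM of the 10 genes that is Lyz2 (vertical axes, from 0), by library in the 8 groups (circles for replicates 1 and 2, open squares for replicate 3), with controls in grey and EGCG in green. The first ratio is above 1 in the 6 day 8 EGCG libraries and below 1 in the other 18, and the second is at most 0.0843 in those 6 libraries.

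Over the 16 libraries of replicates 1 and 2, which share depot, day and treatment as sources of variation, the 45 pairs of genes had Pearson correlations of log2(FPKM + 1) from -0.055 to 0.989, with a median of 0.71 and 7 pairs over 0.9. Against the mean of the 10 standardised genes, C1qc (0.963), C1qb (0.951), C1qa (0.943), Mrc1 (0.942) and Tyrobp (0.915) stood closest, Lyz2 (0.840), Csf1r (0.816) and Cd68 (0.798) followed, and Cd163 (0.415) and Cd14 (0.411) stood apart. Among 10194 other genes, Fcgr3, the low-affinity receptor for IgG, was most like that mean (0.962), followed by Ms4a6c (0.921), Ms4a6d (0.884), Cd302 (0.872), Adam8 (0.858), Ccdc117 (0.847), Gas6 (0.839) and Stab1 (0.838). Fcgr3 was at 1.99 FPKM in WAT day 4 controls, 4.07 with EGCG, 6.47 in WAT day 8 controls and 2.09 with EGCG, and at 4.23, 8.30, 3.87 and 1.87 in the same groups of BAT.

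Of 20 further macrophage and myeloid identity genes, 17 were tested between EGCG and control, and they were tested there because they are not among the 10. In WAT on day 4, 13 rose and 1 fell (34.4% and 19.3% of all genes). With median-ratio scaling the share of all calls that were higher went from 64.1% to 44.7% and the list gave 12 and 1. Ctss, the protease cathepsin S, rose by 1.31 ± 0.10 log2 units and Laptm5 by 0.95 ± 0.11. In BAT on day 4, 9 rose and none fell (27.9% and 20.6% of all genes), led by Ctss (1.32 ± 0.10) and Cd53 (0.87 ± 0.13). None fell at an unadjusted p under 0.05 or in limma-voom either. On day 8 in WAT 15 of the 17 fell and none rose, again also unadjusted and in limma-voom (18.9% and 44.7%), among them Lcp1 (-1.92 ± 0.11) and Itgam, the integrin CD11b (-1.65 ± 0.09). In BAT 10 fell and 2 rose (26.1% and 46.5%), with Ms4a6c (-1.36 ± 0.21) and Adgre1 (-1.21 ± 0.11) lowest and Cd53 higher by 0.85 ± 0.13. Median-ratio scaling moved the share of all calls that were higher from 70.3% to 51.2% in WAT on day 8 and from 64.0% to 51.8% in BAT, and the list then gave 0 and 16, and 1 and 13. Tested as an interaction, the EGCG difference was lower on day 8 than on day 4 for 16 of the 17 genes in WAT and 14 in BAT and higher for 1 in each. In BAT median-ratio scaling took the share of higher calls among all genes from 62.8% to 49.3% in that interaction, and the list then gave 0 and 14. Of all genes 49.4% were called in that test in WAT (29.7% higher and 19.7% lower) and 55.4% in BAT (34.7% and 20.6%). These lists were chosen with results of these data known and are no independent evidence of the direction.

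Between the depots these 17 genes gave 12 higher and 1 lower in BAT in day 4 controls and again with EGCG, 0 and 14 in day 8 controls (0 higher also unadjusted and in limma-voom), and 3 and 0 with EGCG on day 8, where Cd68 alone of the 10 genes was called, lower. The shares of all genes, higher and lower, were 41.4% and 14.4% in day 4 controls and 32.9% and 15.8% with EGCG. On day 8 they were 31.6% and 22.0% in controls and 24.4% and 14.0% with EGCG. Ms4a6c and Adgre1 were higher in BAT day 4 controls by 1.44 ± 0.21 and 1.10 ± 0.11 log2 units. With EGCG on day 4 Cybb and Spi1 led the higher genes (1.05 ± 0.12 and 1.03 ± 0.12).

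The partners of the 10 genes were followed from fixed lists. Csf1, the ligand of Csf1r, was higher with EGCG in each depot on each day. Its mean FPKM in controls and with EGCG was 102 and 140 in WAT on day 4, 191 and 308 in WAT on day 8, 122 and 341 in BAT on day 4, and 129 and 477 in BAT on day 8 (1.88 ± 0.06 log2 units). The means of ligand and receptor were thus both higher with EGCG on day 4 and lay in opposite directions on day 8. Il34, the other ligand, rose in WAT on day 8 (0.40 ± 0.15) and in BAT on day 4 (0.66 ± 0.15). Of 6 partners of Tyrobp, Trem2 never passed 1.30 FPKM and was not tested, and the tested ones were Syk and Plcg2. In BAT on day 8 Syk rose by 0.47 ± 0.09 and Plcg2 was higher by 0.79 ± 0.15. Both were called in none of the other 3 comparisons in limma or limma-voom, where Syk had an unadjusted p under 0.05 in BAT on day 4 (0.21 ± 0.09). Plcg2 passed the filter on low values only through BAT day 8 EGCG cells (mean 1.24 FPKM), so its difference there is a description. Of 5 partners of Cd14 in endotoxin sensing, Ly96, which holds endotoxin on Tlr4, rose in all 4 comparisons (0.62 to 0.80). Lbp, the carrier of endotoxin in plasma, fell on day 8 in WAT (-2.28 ± 0.15) and BAT (-3.49 ± 0.15) and in BAT on day 4. Tlr4 rose in WAT on day 8 (0.31) and in BAT on day 4 (0.42) and day 8 (0.24). Tlr2 rose on day 8 in WAT (0.21) and BAT (0.42). Myd88 fell in WAT on day 8 (-0.33) and in BAT on day 4 (-0.20) and day 8 (-0.25). Of all genes 34.4% and 44.7% rose in WAT on day 4 and day 8, and 27.9% and 46.5% in BAT. The shares that fell were 19.3% and 18.9% in WAT, and 20.6% and 26.1% in BAT.

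C1q acts with the proteases C1ra and C1s1 on C4b, C2 and C3, with Serping1 as the inhibitor, and these genes did not share the day 4 pattern of the C1q chains. Of the 6, 5 fell in WAT and 5 in BAT on day 4 (19.3% and 20.6% of all genes). On day 8, 6 fell in each depot (18.9% and 26.1% of all genes in WAT and BAT). None rose in limma, at an unadjusted p under 0.05 or in limma-voom. On day 4 C1ra fell by 0.80 ± 0.07 in WAT and 1.03 ± 0.07 in BAT while the means of the C1q genes were 1.61 to 2.44 times higher with EGCG. C3 changed most, by -1.96 ± 0.14 in WAT and -2.34 ± 0.14 in BAT on day 4 and -5.75 ± 0.14 and -5.98 ± 0.14 on day 8, followed on day 8 by C4b (-3.42 ± 0.08 and -4.75 ± 0.08). The list median was -0.52 and -0.995 on day 4 and -2.07 and -2.48 on day 8 in WAT and BAT.

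Mrc1 and Cd163 belong to a wider programme of tissue-resident and alternatively activated macrophages, of which 16 other genes were listed and 10 tested. In WAT 5 rose and 1 fell on day 4, and 1 rose and 6 fell on day 8, and in BAT the counts were 2 and 1 and 2 and 5. Of all genes 34.4% rose and 19.3% fell in WAT on day 4, 44.7% and 18.9% on day 8, and in BAT 27.9% and 20.6%, and 46.5% and 26.1%, so the BAT day 4 counts lay below those shares. F13a1, the coagulation factor XIII chain of such macrophages, rose on day 4 in WAT (1.12 ± 0.27) and fell on day 8 in WAT (-2.80 ± 0.27) and BAT (-2.72 ± 0.27), and Pf4 fell on day 8 in both (-2.71 ± 0.20 and -2.48 ± 0.20). In BAT on day 4 F13a1 (-0.005 ± 0.27) and Pf4 (0.33 ± 0.20) were not called, and in WAT on day 4 Pf4 rose (1.01 ± 0.20). Stab1, a scavenger receptor, rose on day 4 in WAT (1.10 ± 0.14) and BAT (1.11 ± 0.14). It fell on day 8 in both (-0.91 ± 0.14 and -1.20 ± 0.14). Hmox1, the haem oxygenase that works on haem taken up by Cd163, rose in all 4 comparisons, by 2.49 ± 0.08 and 1.99 ± 0.08 on day 4 in WAT and BAT and by 2.04 ± 0.08 and 1.54 ± 0.08 on day 8. Slc40a1, the iron exporter, fell in WAT on day 4 (-1.68 ± 0.13), Retnla fell in BAT on day 4 (-0.84 ± 0.22), and Maf rose in BAT on day 8 (0.49 ± 0.11). The summed level of these 16 genes was 654 to 1650 FPKM in replicates 1 and 2, against 64.8 to 483 for the 10 genes. Gas6 alone had group means of 295 to 686 FPKM. Which cells of the cultures expressed the genes of this list, Hmox1 included, was not tested.

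Genes of lipid-associated macrophages and of lysosomes were counted next. Of 12 such genes 10 were tested, and 8 rose and 1 fell in WAT on day 4, in WAT on day 8 and in BAT on day 4, and 4 rose and 2 fell in BAT on day 8. Among all genes 34.4%, 44.7%, 27.9% and 46.5% rose in WAT on day 4, WAT on day 8, BAT on day 4 and BAT on day 8. The shares that fell were 19.3%, 18.9%, 20.6% and 26.1%. Gpnmb, a lysosomal glycoprotein, rose by 1.37 ± 0.15, 1.31 ± 0.15, 2.08 ± 0.15 and 3.08 ± 0.15 in that order. Spp1 (osteopontin) and Lgals3 (galectin-3) rose most in WAT on day 4, by 2.11 ± 0.18 and 1.91 ± 0.06. Fabp5, which carries fatty acids and is also an adipocyte gene, fell in all 4 comparisons (-2.17 to -3.08). Several of these genes are also expressed by other cells, and their summed level was 816 to 2310 FPKM in replicates 1 and 2, against 64.8 to 483 for the 10 genes.

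Genes of inflammatory macrophages were mostly near 0, with Il1b at no more than 2 reads in any library, and 5 of 12 were tested. In WAT 2 rose on day 4 (34.4% of all genes), with Cxcl2 at 1.81 ± 0.14. On day 8, 2 rose and 1 fell (44.7% and 18.9%), with Il6 at 1.14 ± 0.20 and Ccl3 at -0.84 ± 0.18. These WAT counts lay near the shares of all genes. Ccl3 passed the filter on low values only through WAT day 8 controls (mean 1.26 FPKM). Cxcl2 passed it only through the day 4 EGCG groups (3.56 in WAT and 3.00 in BAT). The differences of both genes in those groups are therefore descriptions. In BAT 4 rose on day 4 (27.9% of all genes), led by Ccl2 (1.68 ± 0.19), and 3 rose on day 8 (46.5%), led by Ptgs2 (3.98 ± 0.26) and Il6 (2.70 ± 0.20). Of 5 genes of antigen presentation by MHC class II, which macrophages share with other cells, 2 were tested. H2-Ab1 rose by 3.90 ± 0.29 and 1.04 ± 0.29 in WAT on day 4 and day 8 and by 1.41 ± 0.29 in BAT on day 4, and fell by 0.84 in BAT on day 8. H2-Ab1 in BAT thus had the day 4 and day 8 directions of 9 of the 10 genes, and in WAT it did not. The rest of the list did not share its course. H2-Eb1, the other tested gene, was called only in WAT on day 8 (0.57 ± 0.12). Group means of H2-Aa, Cd74 and Ciita were at most 0.0377, 0.531 and 0.205 FPKM, while that of H2-Ab1 reached 17.9.

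Markers of other cells moved in the same comparisons. Of 7 endothelial genes, 6 were tested, and 5, 4, 6 and 6 rose in WAT on day 4, WAT on day 8, BAT on day 4 and BAT on day 8 (34.4%, 44.7%, 27.9% and 46.5% of all genes rose), led by Pecam1 on day 4 (1.16 ± 0.10 in WAT and 1.46 ± 0.10 in BAT) and Kdr on day 8 (0.98 ± 0.10 and 1.65 ± 0.10). Their summed level in replicates 1 and 2 was 14.70 to 16.02 FPKM in WAT day 4 controls and 35.9 to 37.1 with EGCG, 22.0 to 23.9 and 30.5 to 30.8 on day 8, and in BAT 11.4 to 13.9 and 37.3 to 40.1, and 16.97 to 17.57 and 34.9 to 35.9. The summed endothelial level thus stood higher with EGCG on both days in both depots, while the summed level of the 10 genes did so on day 4 and stood lower on day 8. All 6 adipocyte genes fell in the 4 comparisons, with medians of -2.90 and -2.18 on day 4 and -5.54 and -4.82 on day 8 in WAT and BAT, and their summed level was 129 to 145 FPKM in WAT day 8 EGCG cells and 4279 to 4901 in the controls. In BAT it was 284 to 290 and 8532 to 8653. Lep passed the filter on low values only through the day 8 controls (means of 21.6 FPKM in WAT and 57.7 in BAT). Its day 8 differences, which enter the counts and medians above, are therefore descriptions. Of 5 stromal genes 1 rose and 1 fell in WAT and 1 rose and 3 fell in BAT on day 4, and 4 and 3 fell on day 8. Among all genes 19.3% and 18.9% fell in WAT on day 4 and day 8, and 20.6% and 26.1% in BAT. The part of these changes in the composition of the cultures in the levels of the 10 genes was not tested.

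Few of the other immune and bone markers passed the filter. Of 6 neutrophil genes only S100a8 was tested, and it was not called in any of the 4 comparisons in limma or limma-voom, with an unadjusted p under 0.05 in WAT on day 4 (0.64 ± 0.27). Its mean reached 1 FPKM only in WAT day 4 EGCG cells (1.33), so that difference is a description. Of 7 dendritic cell genes only Zbtb46 was tested, and it fell in WAT on both days (-0.66 ± 0.09 and -0.68 ± 0.09). Of 6 mast cell genes 2 were tested, and Kit rose on day 4 (0.41 ± 0.10 and 0.48 ± 0.10 in WAT and BAT). Cpa3 was called lower with EGCG in WAT on day 8 (-0.40 ± 0.12). It passed the filter on low values only through BAT day 8 controls, with a mean of 1.08 FPKM and 0 in replicate 3. Its BAT day 8 value of -0.83 ± 0.12 is therefore a description. Of 5 osteoclast genes 2 were tested, and in each comparison Ctsk rose (0.42 to 1.86) and Acp5 fell (-0.75 to -4.81). Group means reached 260 FPKM for Ctsk and 47.1 for Acp5. Those of Ocstamp, Dcstamp and Calcr, the rest of the list, were at most 0.217, 0.143 and 0.255. Which cells expressed Ctsk and Acp5 was not tested.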

How the data were processed

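RNA-seq libraries of 24 samples were described by the authors in tables of FPKM values, 1 for replicates 1 and 2 (16 libraries) and 1 for replicate 3 (8 libraries), with 37310 genes of GENCODE vM1 on mouse build NCBIM37 (mm9). The submitters' processing notes list FastQC 0.11.9, HISAT2 2.2.0 and HTSeq 0.11, with no strand setting. The deposited FPKM values multiplied by gene length and depth came out as whole reads for 100% of values at a tolerance of 0.01, and depths were taken from that.

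The main test was limma 3.58.1 (R 4.3.3) on log2(FPKM + 1) over the 8 groups of replicates 1 and 2, for the 14095 genes at 1 FPKM or more in at least 2 libraries, with Benjamini-Hochberg adjustment within each of 12 contrasts and a call at an adjusted p under 0.05. Replicate 3 was shown beside it, not fitted. The 10 genes were tested between depots and in the change of that difference with day, and other lists (macrophage identity, Csf1r ligands, partners of Tyrobp and Cd14, complement, resident, lipid-associated and inflammatory macrophages, MHC class II, and markers of osteoclasts, dendritic cells, T, B and natural killer cells, neutrophils, mast cells, endothelium, adipocytes and stroma) also between EGCG and control. Named are the 10 genes, up to 2 called genes at either end of each other list and comparison, 8 genes most like their mean among those reaching 5 FPKM in the highest group, and near-absent marker genes. A gene of the macrophage identity list is counted but not reported here by name. The genes and lists were chosen with earlier results of these data known.

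Libraries with the same replicate number did not deviate together (28 group pairs, correlations from -0.079 to 0.081), so the numbers were not taken as pairs. Within each group the first and second replicate were further apart than sampling noise (median chi-square of 1.62 to 3.90 per gene, 0.455 by sampling alone). The scripts were tested on simulated data. The alternatives were another pseudocount, other filters, median-ratio and quantile scaling, both tables together, a replicate block, leaving out each library and, chosen after seeing the data, limma-voom on the recovered reads. Python 3.11.15 with pandas 2.3.3, numpy 2.4.6 and matplotlib 3.10.9 was used for the rest.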

Additional observations from a re-analysis of the deposited data

Results flagged for a closer look

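The difference between BAT and WAT in these genes changed between day 4 and day 8, by limma's test of that change on log2(FPKM + 1). In control cells it changed by -1.93 log2 units in C1qa, -1.95 in C1qb and -1.68 in C1qc, where BAT held more on day 4 and less on day 8. The values of the other genes were -1.41 in Mrc1, -1.30 in Cd14, -1.30 in Tyrobp, -1.17 in Lyz2, -1.10 in Csf1r and -0.35 in Cd68. Cells with EGCG gave -0.91 in C1qa, -0.92 in C1qb, -1.09 in C1qc, -0.93 in Csf1r, -0.93 in Lyz2, -0.90 in Cd68 and -0.78 in Tyrobp, and Cd163 gave 1.01. These 8 calls became 2 with both tables fitted together and 3 in limma-voom. The fit of both tables held the library that stands apart, and without that library it took away 1 call over all results. Cd163 passed the filter only through WAT day 4 EGCG cells and gave -0.16 in limma-voom, and in FPKM it was 5.66 times lower in BAT on day 4 and 7.02 times lower on day 8, so its value is a description.

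The EGCG difference of the other macrophage and myeloid identity genes changed between the days, for 17 of 17 tested genes in WAT and 15 of 17 in BAT, against 49.4% and 55.4% of all genes. Both directions are counted, and most of the called genes were lower on day 8. This list was chosen with results of these data known and is no independent evidence of the direction. The cause of these changes was not tested.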

How the results depend on the processing

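Over all results and alternatives, 5090 values kept their direction and side of the threshold or moved by less than the spread, 183 moved further, 130 lost and 56 gained a call, and 1 turned. That one was the EGCG interaction of Cd163, at -0.16 in limma-voom.

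Of the counts among the 10 genes, the 7 calls between depots in day 8 controls became 4 with both tables together. The 1 call with EGCG on day 8 became 2 with both tables, 4 when the WAT day 8 EGCG library of the second table was also left out, 4 with a pseudocount of 0.1 and 2 in limma-voom. The 8 calls of the EGCG interaction became 2 with both tables and 3 in limma-voom. Over all results the fit of both tables took away 24 calls, and 1 when the WAT day 8 EGCG library of the second table was left out. Of the identity genes, a filter at 5 FPKM left 8 of 14 and 8 of 15 calls in WAT on day 4 and day 8, 5 of 9 and 6 of 12 in BAT, and 8 of 17 and 8 of 15 in the interactions of WAT and BAT, since fewer genes were tested. Both tables gave 9 in WAT on day 4.

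Leaving out each library gave 6 to 9, 8 to 8, 5 to 8 and 1 to 4 calls between depots in day 4 controls, day 4 EGCG, day 8 controls and day 8 EGCG, and 9 to 9 and 7 to 8 in the interactions of control and EGCG cells. The identity genes gave 10 to 14, 14 to 16, 8 to 10 and 10 to 15 in WAT day 4, WAT day 8, BAT day 4 and BAT day 8, and 17 to 17 and 13 to 15 in the interactions. Leaving out 1 of 2 libraries assumes that the other varies like the remaining groups.

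The replicate block took the calls between depots in day 8 controls from 7 to 6 by C1qc (adjusted p = 0.0596). Over all results it left 219 calls or values as they were, took 2 calls away and added 1. Both tables together cut the calls over all genes, from 7867 to 2556, 6865 to 2250 and 7555 to 2852 between depots in day 4 controls, day 4 EGCG and day 8 controls, from 5631 to 1164 and 2816 to 700 in the control and EGCG interactions, and for EGCG from 7567 to 3081, 8962 to 3750 and 6962 to 2425 in WAT on day 4, day 8 and their interaction and from 6838 to 2671, 10231 to 6723 and 7803 to 2332 in BAT. These fits of both tables held the library that stands apart. The count test planned in edgeR was not run, because the deposited unit is FPKM. With 2 libraries a group in the fit, Cd163 at 6 and 7 reads and Csf1r and Mrc1 under 1 FPKM in some groups are limited by depth.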
